A study of Callithrix jacchus with 71 samples.

Results

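The genes described here are the insulin-like growth factor (IGF) binding proteins IGFBP2, IGFBP3, IGFBP4, IGFBP5, IGFBP6 and IGFBP7, the related IGFBPL1, and the receptors IGF1R and IGF2R. They are 9 of the 23561 named rows of a table of single marmoset cells (Callithrix jacchus), and all 9 have a row. The genes were selected on these data. IGFBP2 was chosen by its share of the reads of each cell and IGFBPL1 by its level along the cell numbers, so the values of both on those measures are descriptions. The table holds 65 induced neural stem cell-like cells (iNSLCs) of clone E01F A2 at passage 1, 1 iPSC of clone E01F A-2-2, 4 ESCs of line No.40 and 1 E01F fibroblast. The fibroblasts came from the back skin of a marmoset embryo, and the iNSLCs arose from them after electroporation of episomal vectors that encode human reprogramming factors and a dominant-negative mouse p53. According to the methods, iNSLCs of early passage still carried these vectors while the iPSC clone had lost them, and colonies were raised on mouse feeder cells. The iPSC and the ESCs were grown in an ESC medium and the iNSLCs in another one, so cell state, medium and vectors cannot be told apart. Where the iPSC and the 4 ESCs are pooled they are called PSC cells (pluripotent stem cells, 5 in all). Each group is 1 line or clone and was taken as 1 culture, so cells are not replicates of a condition, no test between groups was possible, and no p-value is given.

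IGF1 and IGF2 are secreted growth factors that signal through IGF1R, a receptor tyrosine kinase, and onwards through the IRS docking proteins, PI3K and AKT. IGF2R, the cation-independent mannose 6-phosphate receptor, carries lysosomal enzymes and takes IGF2 into the cell for degradation. The IGFBPs are secreted proteins that hold IGFs in the medium, and proteases such as PAPPA release the IGFs again by cleaving the binding protein. IGFBP2 is known as an abundant binding protein of the fetal brain and of cerebrospinal fluid, and IGFBPL1 is known from the developing mouse forebrain.

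RNA of sorted single cells was copied by RamDA-seq, which covers transcripts along their length. The values are the authors' normalized counts, which scale every cell by its own factor. A single read (1) counts for between 0.441 and 2.84 of these units among iNSLCs, and for between 0.405 and 2.55 among PSC cells. The iNSLCs had 82268 to 695241 reads on genes and 7574 to 13058 detected genes, the PSC cells 134328 to 1003718 reads and 7126 to 15521 genes, and the fibroblast 1294430 reads and 14513 genes. ESC cell 11 was the shallowest PSC cell. The fixed lists of pluripotency and fibroblast markers matched the labels. The sum of the neural stem cell list set iNSLCs apart from PSC cells but not from the fibroblast. Taken singly, 10 of its 12 markers were at least 2-fold higher in iNSLCs than in the fibroblast and 1 was lower. Of all genes tested, 26.1% were at least 2-fold higher and 26.5% at least 2-fold lower. The summed normalized counts of 10 pluripotency markers lay between 0 and 30.2 among iNSLCs and between 549 and 1709 among PSC cells. The sum of 12 neural stem cell markers was 1287 to 8609 in iNSLCs, 123 to 250 in PSC cells and 7297 in the fibroblast, where VIM alone gave 7161. The sum of 12 fibroblast markers was 71.1 to 1313 in iNSLCs, 157 to 720 in PSC cells and 34926 in the fibroblast. Reads were not corrected for gene length, so levels are compared between cells and not between genes. Confidence intervals (95%) cover counting error only.

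IGFBP2 was the gene with the most reads in every iNSLC, 65 of 65. It took 2.57% to 15.9% of the reads of an iNSLC, with a median of 6.21%. Its share was 0.187% in the iPSC, 0.182%, 0.138%, 0.208% and 0.0226% in ESC cells 10, 11, 12 and 14, and 0.714% in the fibroblast. No iNSLC overlapped any other cell. The highest iNSLC shares in cells 60, 64, 57 and 33 were 15.9%, 12.8%, 11.5% and 10.7%, and the lowest was 2.57% in cell 56. In reads, uncorrected for length, IGFBP2 had 2.74 to 18.8 times as many as the next gene of the same iNSLC, with a median of 5.88. That next gene was most often VIM, an intermediate filament gene (28 cells), or the glycolytic gene GAPDH (25 cells). By reads IGFBP2 ranked 22 in the iPSC, 23, 72, 20 and 888 in ESC cells 10, 11, 12 and 14, and 14 in the fibroblast.

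**Figure D1:**
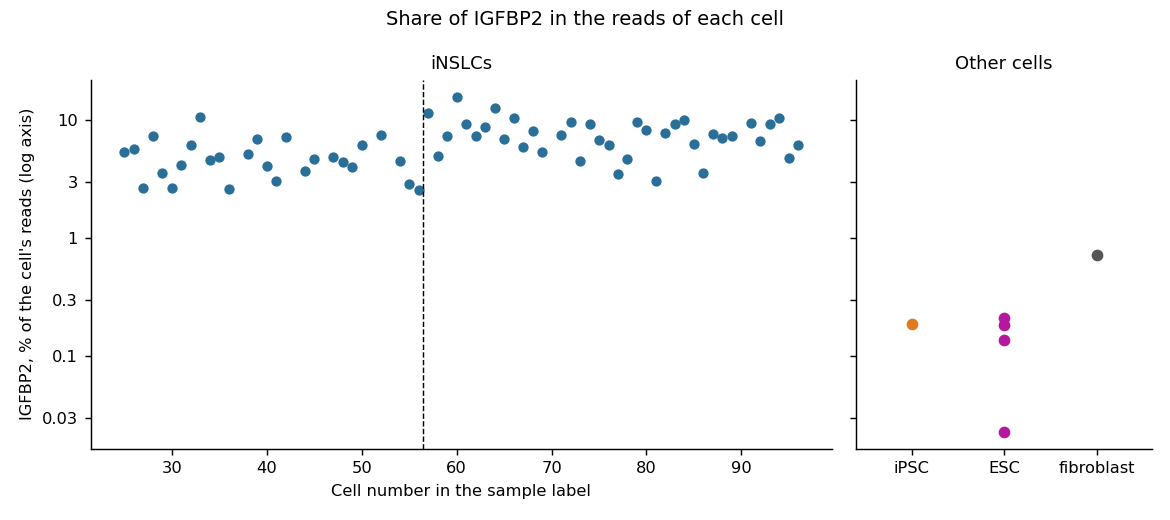
The vertical axis is the percentage of a cell's reads that fall on IGFBP2 (log axis), for 65 iNSLCs by the cell number in their label (left, dashed line between 56 and 57) and for the iPSC, the 4 ESCs and the fibroblast (right); each point is 1 cell. The iNSLCs lie between 2.57% and 15.9%, all above the fibroblast at 0.714% and the PSC cells at 0.0226% to 0.208%.

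On the normalized scale IGFBP2 was 5766 at the lowest, 20551 at the median and 61598 at the highest in iNSLCs. It was 605 in the iPSC, 738, 472, 823 and 87.5 in ESC cells 10, 11, 12 and 14, and 3738 in the fibroblast. The order of the levels was iNSLCs, then the fibroblast, then the PSC cells, with no overlap between neighbours in this order. The iPSC lay inside the range of the 4 ESCs. The mean was 20515 ± 10209 in iNSLCs (SD over 65 cells) against 545 in PSC cells, and the log2 ratio was 5.23 (37.6-fold). Against the fibroblast the log2 ratio was 2.46 (5.49-fold). Every log2 ratio is between means to which a pseudocount of 1 was added, whereas a value written as a fold is the plain quotient of means and is larger for low genes. The PSC mean leans on cells of 1 ESC line, and without ESC cell 14 the log2 ratio of IGFBP2 was 4.96.

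Ratios of at least 2-fold were counted for genes whose mean reached 1 in either group. Of all genes tested between iNSLCs and PSC cells, 15.2% were at least 2-fold higher in iNSLCs and 30.4% at least 2-fold lower. Of the 9 genes, 6 had a mean that high. IGFBP2, IGFBP5 and IGFBPL1 were at least 2-fold higher in iNSLCs, and IGFBP4, IGF1R and IGF2R stayed within 2-fold. IGFBP3, IGFBP6 and IGFBP7 were too low in both groups. Between iNSLCs and the fibroblast, 26.1% of all genes tested were at least 2-fold higher and 26.5% at least 2-fold lower in iNSLCs. There 8 of the 9 genes could be compared: IGFBP2, IGFBP4 and IGFBPL1 were higher in iNSLCs, and IGFBP3, IGFBP6, IGF1R and IGF2R were lower. These calls hold for the deposited scale, and no other scaling of the cells was run against the fibroblast. IGF2R, at a log2 ratio of -1.05, lay just past the limit, so its call may depend on the scale. Since the genes were selected on these data, the counts say nothing about IGF genes as a class. Among genes averaging 10 or more, the median log2 ratio of iNSLCs to PSC cells was -0.45 and shifted by 0.28 when counts per total reads of the cell (CPM) replaced the authors' factors. Relative to that median, IGFBP2 stood at 5.68 on the deposited scale and 5.64 in CPM.

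**Figure D2:**
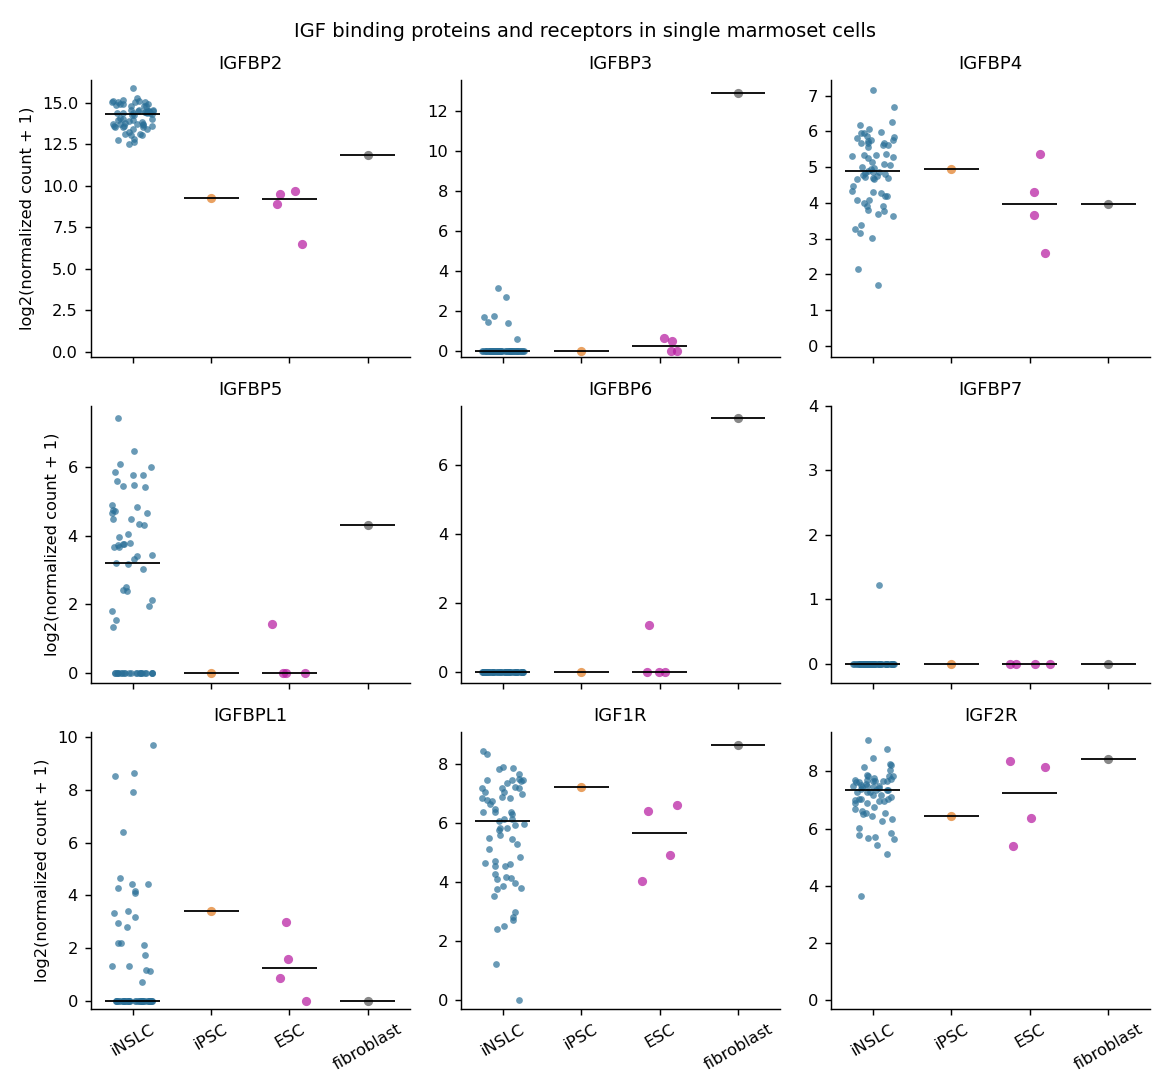
Each panel gives 1 gene, with log2(normalized count + 1) on the vertical axis and the groups iNSLC (65 cells), iPSC (1), ESC (4) and fibroblast (1) from left to right; points are cells, shifted sideways for clarity, and black lines are group medians. IGFBP2 separates the iNSLCs from all other cells, IGFBP3 and IGFBP6 separate the fibroblast, and the iNSLCs overlap the PSC cells in IGFBP4, IGF1R and IGF2R.

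IGFBP3, the main IGF carrier of the blood, and IGFBP6, which prefers IGF2 over IGF1, were highest in the fibroblast. IGFBP3 had reads in 7 of 65 iNSLCs, with 19 reads in all and no more than 6 in a cell. In iNSLCs its mean was 0.336 normalized counts and its highest value 7.91. It was 0 in the iPSC, 0.405 and 0.540 in ESC cells 10 and 12 (1 read each), 0 in ESC cells 11 and 14, and 7706 in the fibroblast. The plain quotient of means was 22930-fold lower in iNSLCs than in the fibroblast, beside a log2 ratio of -12.49. It rests on those 19 reads: without cell 78, which held 6 of them, it was 35382-fold. IGFBP6 had no read in any of the 65 iNSLCs, which allows a share of cells with a read of up to 4.62% (3 cells of 65). Among PSC cells it was 1.62 in ESC cell 12 (3 reads) and 0 in the others, and it was 163 in the fibroblast. With a floor of 3 reads over the 65 cells, IGFBP6 was at least 2637-fold lower in iNSLCs than in the fibroblast. The contrast rests on a single fibroblast, so the spread among fibroblasts is unknown. The iNSLCs descend from fibroblasts of the same animal, and their fibroblast marker sum was far below that of the fibroblast as well.

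IGFBP4, a binding protein that PAPPA cleaves, had reads in all 65 iNSLCs. Its lowest, median and highest values were 2.27, 28.7 and 143 in iNSLCs. It was 29.9 in the iPSC, 18.6, 5.11, 40.5 and 11.7 in ESC cells 10, 11, 12 and 14, and 14.6 in the fibroblast. The PSC cells and the fibroblast all lay inside the range of the iNSLCs. The log2 ratio was 0.70 to the PSC cells and 1.21 to the fibroblast. In CPM the first was 0.97, and it passed 1 when IGFBP2 was left out of the totals (1.07), when cells were thinned to equal reads (1.13) or without ESC cell 12 (1.06).

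IGFBP5, the binding protein encoded next to IGFBP2 in the RefSeq marmoset assembly, was a gene of part of the iNSLCs. It had reads in 43 of 65 iNSLCs, or 66.2% (CI 53.4% to 77.4%). Its median was 8.13 and its highest value 170. Among PSC cells only ESC cell 14 had reads, 2 in number, at 1.67 normalized counts, and the fibroblast had 19.0. The mean of 17.6 ± 27.7 in iNSLCs (SD over 65 cells) was 52.8-fold that of PSC cells as a plain quotient, with a counting interval of 14.6 to 436 that comes from these 2 reads. The log2 ratio, which holds the pseudocount, was 3.80. The fibroblast lay inside the range of the iNSLCs. Without ESC cell 14 no PSC cell had a read, and the log2 ratio was 4.22. At equal depth, with each cell thinned to 134328 reads, 37 of the 57 iNSLCs deep enough had reads of IGFBP5 (64.9%) and no PSC cell had any. IGFBP2 and IGFBP5 moved together little among iNSLCs, with a Spearman correlation of 0.15.

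IGFBP7, which resembles the IGFBPs at its amino-terminal end, was nearly absent. It had 2 reads in 1 of 65 iNSLCs, a share of 1.54% (CI 0.0389% to 8.28%), and none in the PSC cells or the fibroblast. In the RefSeq assembly IGFBP7 overlaps POLR2B and IGF1R overlaps SYNM. For the counting, build and strand setting are not given in the sources read, so reads of such overlaps could not be told apart.

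IGFBPL1 combined many empty cells with a few very high ones. It had reads in 25 of 65 iNSLCs, or 38.5% (CI 26.7% to 51.4%), with a median of 0 and a highest value of 836. It was 9.62 in the iPSC, 2.02, 0, 7.02 and 0.833 in ESC cells 10, 11, 12 and 14, and 0 in the fibroblast. The mean was 32.2 ± 124 in iNSLCs (SD over 65 cells) against 3.90 in PSC cells, and the log2 ratio was 2.76. With medians over cells in place of means the sign turned, to -1.60, since most iNSLCs had no read and 4 of 5 PSC cells had some. iNSLC cell 27 alone held 42.0% of the IGFBPL1 reads of all iNSLCs, and without it the log2 ratio was 2.08. Against the fibroblast the mean of the iNSLCs was at least 26.5-fold higher, or 16.2-fold without cell 27, while their median was 0 like the fibroblast.

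Along the cell numbers of the labels, the mean level of IGFBPL1 differed, and for the share of iNSLCs with reads no direction could be read. The numbers were divided between 56 and 57 in earlier work on these data, by eye and with the profiles known, and the labels do not say what a number stands for. Reads were found in 15 of 38 iNSLCs numbered 57 or above (39.5%, CI 24.0% to 56.6%) and in 10 of 27 numbered 56 or below (37.0%, CI 19.4% to 57.6%), a difference of 2.44 percentage points. It was -13.4 points when at least 2 reads were asked for and -10.2 points after thinning to equal reads. The mean was 4.52 in cells numbered 57 or above and 71.2 in cells numbered 56 or below, a log2 ratio of -3.71, which was -2.95 without cell 27 and -4.42 without cell 81. The highest 4 values, 836, 398, 363 and 238 in cells 27, 40, 25 and 36, all belonged to numbers of 40 or lower. The next were 84.3 in cell 81 and 24.5 in cell 52, and 14 iNSLCs had IGFBPL1 reads at below 10 normalized counts. Cells numbered 57 or above had fewer reads (median 208746) than cells numbered 56 or below (median 357910), and more detected genes (median 11333.5 against 10061).

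**Figure D3:**
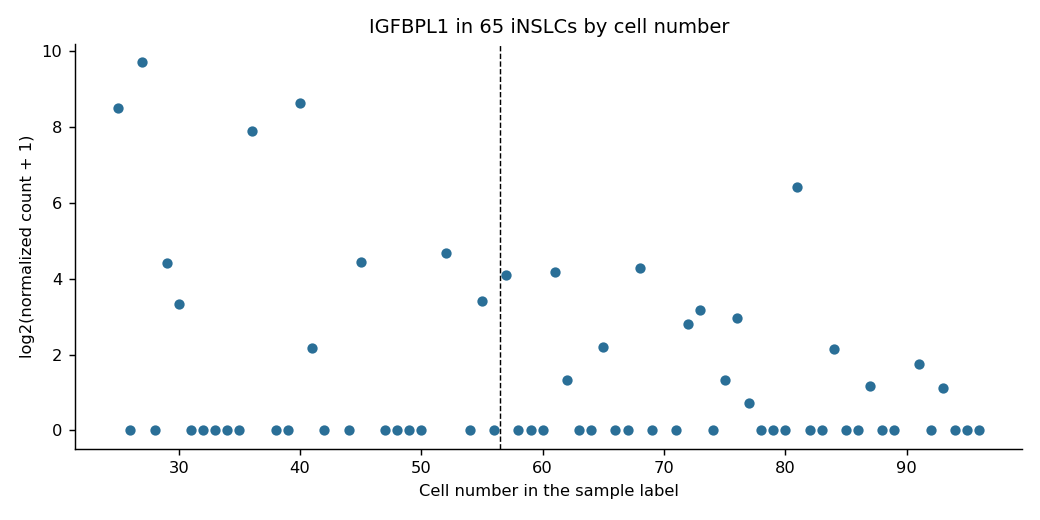
The vertical axis is log2(normalized count + 1) of IGFBPL1 and the horizontal axis the cell number in the label; each point is 1 of 65 iNSLCs and the dashed line lies between 56 and 57. Empty cells occur along the whole axis, while the 4 cells above 100 normalized counts are numbered 25, 27, 36 and 40.

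DCX, which encodes a microtubule protein of migrating neuroblasts, had reads in 52 of 65 iNSLCs, among them the cells with most IGFBPL1. In cells 27, 40, 25, 36 and 81, DCX was 349, 106, 117, 88.8 and 139 normalized counts, against a mean of 25.9 over all 65 iNSLCs. STMN2, another gene of young neurons, was 1.93, 47.4, 127, 10.4 and 18.2 in the same cells, with a mean of 7.54. Over the 65 iNSLCs the Spearman correlation of IGFBPL1 was 0.20 with DCX, 0.39 with STMN2 and 0.48 with MAP2, a neuronal microtubule gene. It was positive with all 8 neuron and neuroblast markers that have a row, down to 0.11 for ELAVL3 and 0.07 for GAP43. In cells numbered 57 or above it was 0.54 with MAP2, 0.27 with STMN2, 0.03 with DCX, 0.004 with ELAVL3 and -0.05 with SNAP25. The sum of the 8 markers gave 0.30 on ranks, and 0.22 without the 2 cells farthest from the median of the sum. On ranks the sum gave 0.29 in cells numbered 57 or above and 0.40 in cells numbered 56 or below. As a Pearson correlation of log2 values it gave 0.57.

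IGFBP2 also differed along the cell numbers, at a smaller size. Its median share was 7.44% of reads in iNSLCs numbered 57 or above and 4.57% in iNSLCs numbered 56 or below, with ranges of 3.07% to 15.9% and 2.57% to 10.7%. The normalized mean was 25039 in cells numbered 57 or above and 14147 in cells numbered 56 or below, a log2 ratio of 0.82. Of all genes tested between these sets, 7.33% were at least 2-fold higher and 7.10% at least 2-fold lower in cells numbered 57 or above. Of the 9 genes, 6 were high enough to compare; IGFBPL1 was lower and none was at least 2-fold higher. IGFBP4 stood at a log2 ratio of 0.77, IGFBP5 at -0.72, IGF1R at 0.40 and IGF2R at 0.22. Within either set IGFBP2 did not follow the cell number, with Spearman correlations of -0.17 in cells numbered 57 or above and -0.03 in cells numbered 56 or below, against 0.44 over all iNSLCs.

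The receptors were read in nearly every cell. IGF1R had a lowest, median and highest value of 0, 66.3 and 347 in iNSLCs, with reads in 64 of 65. It was 149 in the iPSC, 83.4, 15.3, 97.2 and 29.2 in ESC cells 10, 11, 12 and 14, and 403 in the fibroblast. The PSC cells lay inside the range of the iNSLCs, and on the deposited scale the fibroblast lay above it. In CPM the fibroblast, at 770, lay inside the range of the iNSLCs, with 1108 in cell 81 and 1072 in cell 86. The log2 ratio was 0.22 to the PSC cells and -2.20 to the fibroblast. With single PSC cells left out the first was -0.04 to 0.62 and with medians it was -0.33, so no direction is read for IGF1R between iNSLCs and PSC cells.

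IGF2R had a lowest, median and highest value of 11.5, 160 and 551 in iNSLCs, with reads in all 65. It was 85.5 in the iPSC, 327, 40.9, 81.0 and 282 in ESC cells 10, 11, 12 and 14, and 341 in the fibroblast. Every other cell lay inside the range of the iNSLCs. The log2 ratio of means was 0.00 to the PSC cells, with -0.24 to 0.42 when single PSC cells were left out, and -1.05 to the fibroblast. With medians over cells the first was 0.90, so its size depends on which average is taken. The ratio to the fibroblast, just past 2-fold, was taken on the deposited scale only. INSR, the insulin receptor, averaged 101 in iNSLCs and 150 in PSC cells and was 38.8 in the fibroblast.

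Among the iNSLCs, IGF2R was low where genes of mitosis were high. Its Spearman correlation with the sum of 10 mitosis genes was -0.60 over 65 cells. It was -0.59 in cells numbered 57 or above and also -0.59 in cells numbered 56 or below, and -0.65 without the 2 cells farthest from the median of the sum. All 10 genes of the list had a negative correlation with IGF2R, from -0.58 (TOP2A, a topoisomerase of dividing cells) to -0.25 (CCNA2, a cyclin). The correlation of IGF2R was -0.15 with the reads of a cell and -0.16 with its detected genes. Cell 78, with the highest IGF2R of 551, had a mitosis sum of 3.95. Cells 41 and 26, with sums of 1014 and 705, had IGF2R at 51.6 and 34.0. The pattern had exceptions: cell 47 had the highest sum, 2571, with IGF2R at 226, and cell 30 had the lowest IGF2R, 11.5, at a sum of 57.3. IGF1R, by contrast, had a correlation of 0.13 with the same sum. Of 42 relations between 6 of the genes and other measures of the cell, from -0.60 to 0.59, this was the strongest negative one. The cells come from 1 culture, and the correlations are descriptions.

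**Figure D4:**
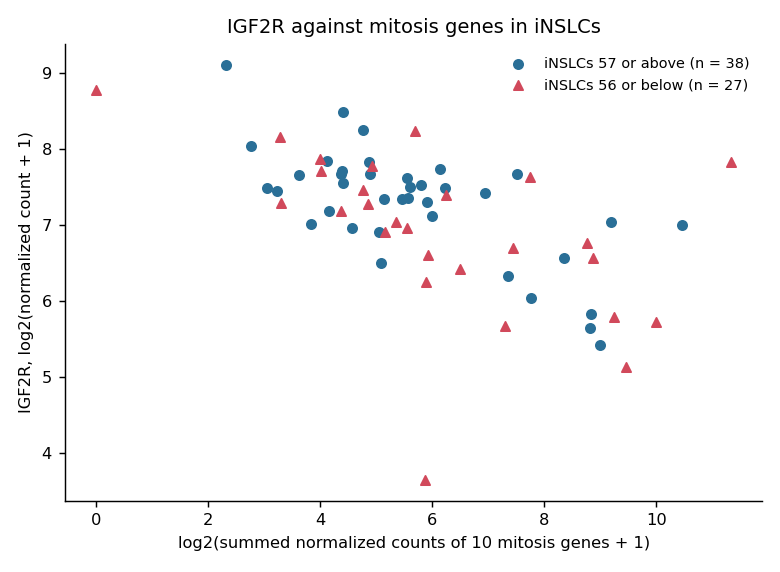
IGF2R is plotted as log2(normalized count + 1) against the summed normalized counts of 10 mitosis genes, also as log2 after adding 1; each point is 1 iNSLC, with 38 cells numbered 57 or above (circles) and 27 numbered 56 or below (triangles). Both sets fall from upper left to lower right, with a Spearman correlation of -0.60 over all 65 cells.

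The largest positive relation was that of IGFBP2 with the sum of neural stem cell markers, at 0.59 over the 65 iNSLCs. It was uneven between the sets, at 0.29 in cells numbered 57 or above and 0.76 in cells numbered 56 or below. VIM led the sum and had a correlation of 0.56 with IGFBP2, SOX2 had 0.47 and MSI1 0.45, whereas FABP7, a fatty acid-binding protein of radial glia, had -0.43 and PAX6 -0.10. In cells numbered 57 or above the values were 0.22 for VIM, 0.33 for SOX2 and 0.30 for MSI1. In cells numbered 56 or below they were 0.81 for VIM, 0.24 for SOX2 and -0.05 for MSI1. IGFBP2 correlated with 9 of the 12 markers positively and with 3 negatively. By the rule for genes of like pattern, the closest of 5816 genes to IGFBP2 were those of the ribosomal proteins RPL8 (0.76), RPLP1 (0.71) and RPL19 (0.70). Their correlations were 0.44, 0.36 and 0.35 in cells numbered 57 or above and 0.78, 0.74 and 0.63 in cells numbered 56 or below.

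The other genes had weaker companions, given for each as the 3 highest of 5816 correlations. How high the top correlations of unrelated genes reach was not tested. The closest to IGFBP4 were AGRN (0.58), CRB2 (0.57) and TKT (0.55), the closest to IGF2R DDIT4 (0.55), SLC44A2 (0.53) and PDXK (0.50). IGF1R was closest to CELSR2 (0.49), SNRNP70 (0.45) and DDX17 (0.45), and IGFBP5 to EFCC1 (0.48), KBTBD11 (0.47) and TFDP1 (0.45). Some were uneven between the sets. SLC44A2 with IGF2R stood at 0.31 in cells numbered 57 or above and 0.67 in cells numbered 56 or below. AGRN with IGFBP4 was more even, at 0.56 and 0.52. Among each other, the 15 pairs of the 6 genes had correlations of -0.19 to 0.42. The highest was that of IGFBP2 with IGFBP4, at 0.42 overall and 0.23 and 0.33 within the sets numbered 57 or above and 56 or below.

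The genes also differed in how unevenly they were spread over the iNSLCs. The coefficient of variation over the 65 cells was 3.86 for IGFBPL1, above 99.9% of 1699 genes whose mean was within a factor of 1.41 of its own. It was 1.58 for IGFBP5, above 96.9% of 2549 such genes, and 0.911 for IGF1R, above 92.1% of 573. IGFBP4 (0.689) and IGF2R (0.565) were closer to genes of like mean, whose medians were 0.649 and 0.479. No other gene had a mean near that of IGFBP2, whose coefficient of variation was 0.498. IGFBPL1 was chosen by its level along the cell numbers, and cell 27 held 42.0% of its reads in iNSLCs. Its place among genes of like mean is therefore a description only.

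The wider IGF system was read from a fixed list of 44 genes, of which 42 have a row. Of these, 40 were high enough to compare, and 6 were at least 2-fold higher and 11 at least 2-fold lower in iNSLCs than in PSC cells. The median log2 ratio was -0.33, beside -0.37 over all genes tested, so the list as a whole lay close to the background. Of the ligands, IGF1 and INS have no row, so their levels are unknown here. IGF2 had reads in 21 of 65 iNSLCs and averaged 2.68 in iNSLCs and 0.641 in PSC cells, where 1 cell had reads. It was 0 in the fibroblast.

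Values of single genes of the list follow. STC1, a secreted inhibitor of the IGFBP proteases, had reads in 57 of 65 iNSLCs and in 1 PSC cell. It averaged 17.5 in iNSLCs against 0.666 in PSC cells (log2 ratio 3.47). Its relative STC2 averaged 0.557 in iNSLCs and 3.33 in PSC cells (-1.47), and PAPPA itself averaged 1.51 in iNSLCs and 3.93 in PSC cells (-0.98). Among docking proteins, IRS4 averaged 0.237 in iNSLCs and 10.4 in PSC cells (-3.21), and IRS1 15.2 in iNSLCs and 4.37 in PSC cells (1.59). FOXO1, a transcription factor that AKT keeps out of the nucleus, averaged 4.99 in iNSLCs and 42.5 in PSC cells (-2.86). Of 21 genes of PI3K, AKT and TOR signalling, 1 was at least 2-fold higher and 6 at least 2-fold lower in iNSLCs, shares near or below the 15.2% and 30.4% of all genes tested. Among the lower ones were AKT2 (-2.11) and MTOR (-1.71). The higher one, PDK1 (57.1 in iNSLCs and 10.2 in PSC cells, log2 ratio 2.38), encodes pyruvate dehydrogenase kinase; the kinase of the same short name that acts on AKT is encoded by PDPK1, which stood at -0.99.

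**Figure D5:**
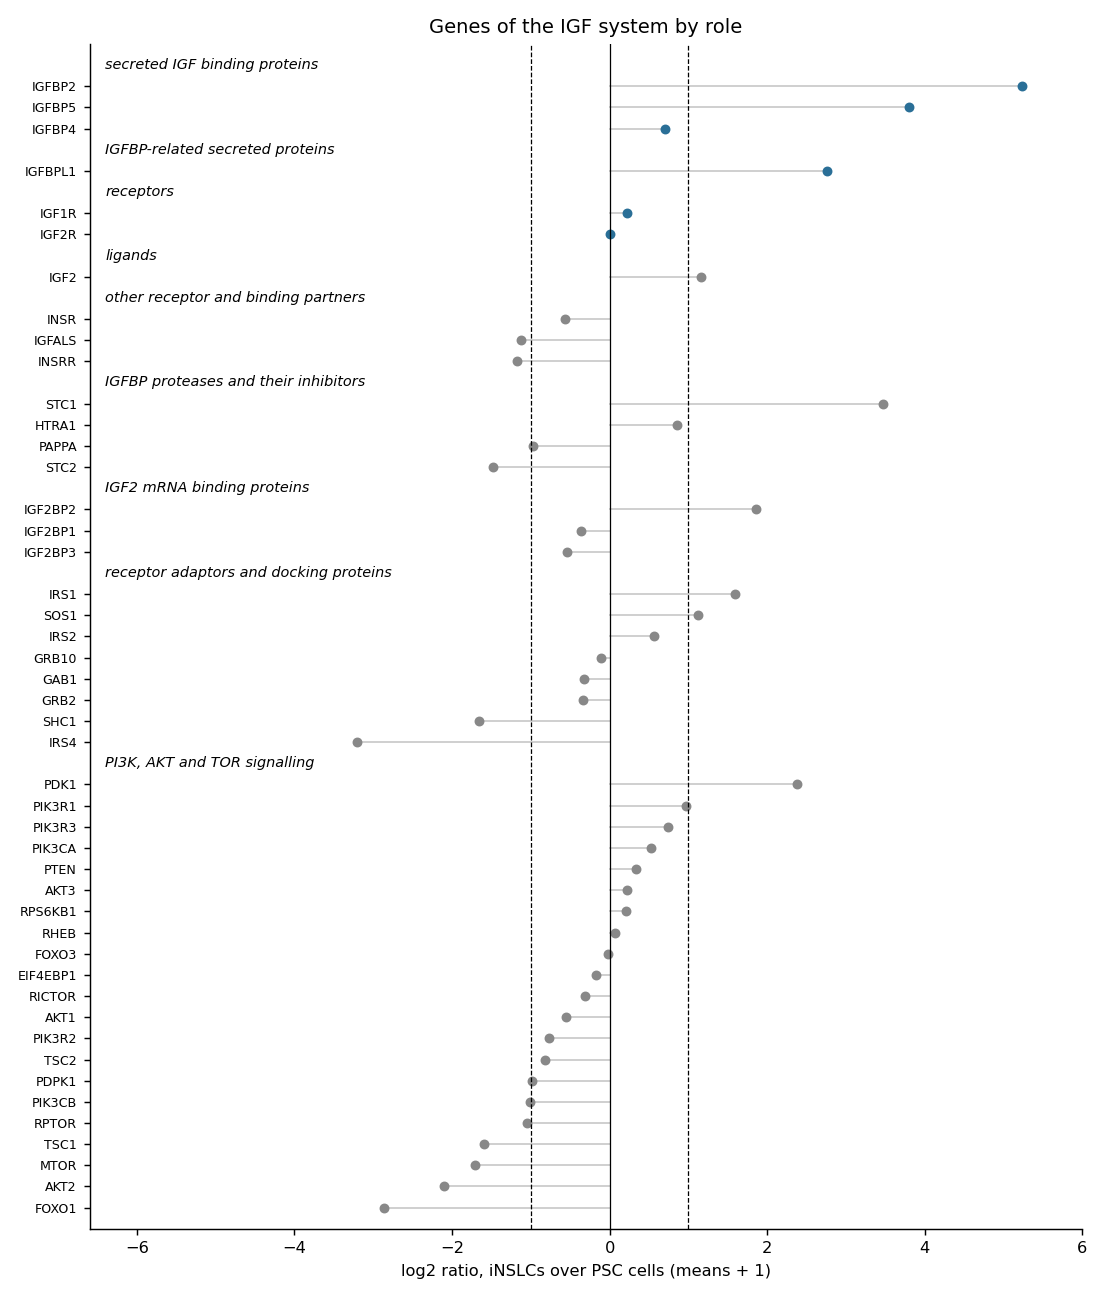
The horizontal axis is the log2 ratio of the mean in iNSLCs to the mean in PSC cells after adding 1, for 6 of the 9 genes (blue) and 40 further genes of the IGF system (grey) that were high enough to compare, grouped by role; dashed lines mark 2-fold. IGFBP2 at 5.23, IGFBP5 at 3.80, STC1 at 3.47 and IGFBPL1 at 2.76 lie farthest to the right, and IRS4 at -3.21 farthest to the left.

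Against the fibroblast, 39 genes of the list could be compared; 9 were at least 2-fold higher and 15 at least 2-fold lower in iNSLCs, beside 26.1% and 26.5% of all genes tested. The median log2 ratio was -0.77, beside -0.08 over all genes tested. Between cells numbered 57 or above and 56 or below, 38 could be compared, with 4 higher and 4 lower, beside 7.33% and 7.10% of all genes tested. Of 5 CCN genes with a row, which encode secreted matrix-associated proteins once grouped with the IGFBPs, 2 were high enough to compare with PSC cells and 1, CCN2, was at least 2-fold lower in iNSLCs. CCN2 averaged 18.0 in iNSLCs, 63.3 in PSC cells and 269 in the fibroblast, and CCN1 38.3 in iNSLCs, 73.2 in PSC cells and 437 in the fibroblast.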

How the data were processed

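Single marmoset cells were sorted into plates and read by RamDA-seq. The signal values deposited by the authors are normalized counts, 1 table for all 71 cells, with a factor per cell. Tools credited to the submitters' processing notes are Seurat 3.0.0, featureCounts 1.5.1, STAR 2.6.0c and Trimmomatic, with no role stated. Genome build and gene annotation: not given in the sources used here. Every non-zero value lay within 0.02 of a whole number of reads (largest deviation 0.0117), so reads per cell were recovered. A value of 1 read is larger in shallow cells. The row with no gene name, at most 0.449% of a cell, was left out.

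Python 3.11.15 was used with scipy 1.17.1, numpy 2.4.6, pandas 2.3.3 and matplotlib 3.10.9. Log2 ratios are between means after a pseudocount of 1 (folds carry none), for genes with a mean of at least 1 in either group. Shares have exact Clopper-Pearson intervals (95%), a share of 0 has an upper limit of 3 cells of the total, and for a group with no read the floor was 3 reads in the whole group. No count test was run, since each group is 1 culture and cells are not replicates. Gene names and neighbours were looked up in the RefSeq table of assembly calJac240_pri, where all 9 genes matched; no sequence or coordinate was used.

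The members, the gene lists and the boundary between cell numbers 56 and 57 were chosen with earlier results of these data known. The rule for named genes took all 9 members, up to 4 genes per other list with the largest absolute log2 ratio, and the 3 genes with the highest Spearman correlation over iNSLCs to each member read in at least 50% of them, among named genes with a mean of at least 10. IGF2, INSR, STC2, PAPPA, IRS1, AKT2, MTOR, PDPK1, DCX, STMN2, MAP2 and the single markers correlated with members were named after their values were seen, or for their role. Alternatives were a pseudocount of 10, CPM with and without IGFBP2 in the total, medians, thinning, dropping the 10% of iNSLCs in which fewest genes were detected, other detection limits and leaving out each PSC cell; leaving out iNSLC cells 27, 78 or 81 was added after seeing the data. Ratios to the fibroblast were computed on the deposited scale only.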

Additional observations from a re-analysis of the deposited data

Results flagged for a closer look

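Among the 4 ESCs, 10 measures were searched for a cell far from the others, with about 1 in 20 taken as the rate by chance. That rate does not hold for genes near 0, since a gene with reads in only 1 of the 4 cells is flagged by construction. IGFBP5 was 1.67 normalized counts in ESC cell 14 and 0 in the other 3, and IGFBP6 was 1.62 in ESC cell 12 and 0 in the other 3. These values are 2 and 3 reads, and the PSC side of the IGFBP5 ratio rests on the first of them.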

How the results depend on the processing

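IGFBP2 stayed higher in iNSLCs than in PSC cells under every alternative run, with log2 ratios of 4.96 to 5.59. Past 2-fold in either direction were 3 to 4 of the 9 genes, IGFBP4 being the one that crossed the line. Of all genes tested, 45.6% were past 2-fold in the main setting, 14.5% with a pseudocount of 10 and 57.4% with medians over cells. IGFBPL1 reversed, to -1.60, with medians over cells, where it counted as past 2-fold in the opposite direction. IGFBP5 moved to 1.42 with a pseudocount of 10 and to 5.01 in CPM (counts per total reads of the cell). Among values of single genes, 17 moved by more than their spread (or by over 1.5 times, where a single iNSLC was left out), 1 reversed and 93 did neither. Ratios near 0 that changed sign were not counted as reversed. IGF1R went from 0.22 to -0.33 with medians over cells, and IGFBP3 from 0.17 to -0.14 after thinning. The 93 include values of IGFBP3, IGFBP6 and IGFBP7, which were too low to compare. The difference in the share of cells with IGFBPL1 reads, cells numbered 57 or above minus 56 or below, was 2.44 percentage points, -13.4 with at least 2 reads and -10.2 after thinning, so no direction is read from it. In CPM 46.5% of all genes past 2-fold were higher in iNSLCs, against 33.3% on the deposited scale. No paired analysis was possible because each label number names a single cell and no number occurs in more than 1 group. Precision is limited by 5 PSC cells, 1 fibroblast and 1 culture per group; shares count cells with a read, not cells that express a gene.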
